A study of Mus musculus with 3 samples.

Results

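A set of 140 genes was bright in control mouse 2-cell embryos and at least 3-fold lower in 2-cell embryos derived from NSN oocytes, among 16593 genes with a named probe on the array. The genes were selected on the measured signals themselves: a control signal of at least 30, and a geometric mean of both NSN signals, each set to 8.6 where it was lower, at least 3-fold under the control. Genes of 32 name groups, among them ribosomal proteins, translation factors, proteasome subunits and respiratory chain subunits, were left out by name. The fall in NSN embryos is therefore how the set was made and not a finding of it. Of the 187 genes with a control signal of at least 30, 177 (94.7%) passed the same fold, and outside the left-out name groups 140 of 149 did (94%), against 1.07% of all 16593 genes for both conditions together. Almost every bright control gene passed, so passing the fold does not mark these 140 genes out from other bright genes.

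Illumina mouse-8 BeadChip arrays measured transcripts of 2-cell embryos 26 hr after insemination, with 1 array for 2-cell ctrl embryos and 2 arrays (a and b) for 2-cell NSN embryos. Oocytes came from F1B6C3H females aged 4 to 6 weeks and sperm from males aged 5 months. The labels spell the strain F1B6C3H, and the paper's methods write B6C3F1 for both sexes. The females that gave antral oocytes were injected with PMSG, and the methods do not state what treatment gave the ovulated control eggs. No allele is named that differs between the groups. Control embryos came from ovulated eggs, whereas NSN oocytes were isolated from the ovary and matured in culture, so the oocyte type and the culture cannot be told apart. The sample titles name 2-cell embryos, the source field names the MII oocytes of the competent or incompetent class. The control is a single array, and no source used here states that the NSN arrays came from separate pools, so no difference has a test and the spread between arrays a and b may be technical. In bulk samples, fewer cells with a transcript and less of it per cell cannot be told apart.

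In fully grown mouse oocytes the chromatin either surrounds the nucleolus or does not, and the latter class, called NSN, rarely supports development past the 2-cell stage. During growth the oocyte stores transcripts and proteins that carry the embryo through its first division. Around the 2-cell stage many of these stored transcripts are degraded, while transcription from the embryonic genome begins.

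Promoter stretches of 5 of the 140 genes are shown because they hold the motifs counted over the set, each read 5′ to 3′ on the gene's strand from RefSeq (GRCm38.p6), with the motif in capitals. Distances are counted from the start site of the RefSeq window, which was the outer limit of the gene for 64 of 118 genes and another start for 54. Serf2, a small protein known to modify amyloid aggregation, has the E box letters CACGTG at 105 and 47 bases before its start, in the stretch chr2:121449078-121449197 (+ strand). Cenpa, the histone H3 variant of centromeres, has CCAAT in the reverse letters ATTGG at 109 and 86 bases before its window's start site, in chr5:30666766-30666885 (+ strand), and that site lies 9 bases inside the gene's outer limit. Mis18a, which licenses centromeres to receive that histone, has the GC box letters GGGCGG at 45 bases before its start, in chr16:90727372-90727491 (- strand). Hspa2, a chaperone of the HSP70 family, has the POU octamer ATGCAAAT in its reverse letters at 182 bases before its window's start site, in chr12:76404158-76404225 (+ strand). That site lies 558 bases inside the outer limit of Hspa2, so the stretch is within the annotated gene. Wwc2, a scaffold protein related to KIBRA, has it at 17 bases, in chr8:47990545-47990591 (- strand).
Serf2: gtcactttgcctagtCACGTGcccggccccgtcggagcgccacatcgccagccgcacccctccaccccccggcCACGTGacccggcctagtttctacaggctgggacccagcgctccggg
Cenpa: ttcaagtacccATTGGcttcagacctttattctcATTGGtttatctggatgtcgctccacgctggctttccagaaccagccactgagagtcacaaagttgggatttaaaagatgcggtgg
Mis18a: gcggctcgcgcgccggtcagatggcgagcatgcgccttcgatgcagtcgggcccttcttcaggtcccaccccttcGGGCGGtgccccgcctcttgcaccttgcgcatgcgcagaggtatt
Hspa2: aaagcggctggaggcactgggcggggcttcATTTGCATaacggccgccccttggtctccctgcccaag
Wwc2: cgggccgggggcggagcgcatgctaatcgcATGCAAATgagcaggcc

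Motifs were counted on both strands in the 250 bases before the start, for the 118 of 140 genes with a RefSeq window. The octamer (ATGCAAAT) was present in 2 promoters (1.69%), against 2.58% of bright genes with a window, 1.68% of genes on the array and 1.61% of all 27025 promoters of that length. CCAAT was present in 48 (40.7%), against 43.9%, 36.0% and 34.5% in the same order. The GC box (GGGCGG) was present in 78 (66.1%), against 61.9% of bright genes, 46.4% of genes on the array and 32.9% of all promoters. TATAAA was present in 10 (8.47%), against 10.3%, 11.7% and 13.0% in that order. CACGTG was found in 11 promoters (9.32%), against 8.39%, 7.18% and 6.05%. CCGGAAG, the letters of the ETS core, was found in 16 (13.6%), against 14.8%, 9.79% and 7.05%. The cyclic AMP response element TGACGTCA was found in 5 (4.24%), against 3.87%, 2.1% and 1.62%. None of these motifs contains another, and the shares lay within a few percentage points of those of bright genes as a whole. The set supplied 118 of the 155 bright-gene windows, so this nearness is largely built in. A match is a description of the letters and not a site of binding.

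On the control array the 140 genes had signals from 30.2 to 549, with a median of 54.9, and 29 of them were over 100. On both NSN arrays 124 of the 140 were under 8.6, 3 were under it on 1 array, and 13 were at or over it on both. Where a NSN signal was under 8.6 a fold is a lower bound, given as at least N-fold, and for the 124 genes it is the control signal over 8.6, so that the order of these folds is the order of their control signals. The median log2 difference of the set was -2.52, beside -2.55 over all bright genes and -0.89 over the 664 genes with a control signal of at least 8.6. Arrays a and b gave the set median signals of 1.04 and 1.18, where all 16593 genes had medians of 0.372 and 0.352. Positive signals on both NSN arrays were seen for 73 of the 140 genes (52.1%), against 40.4% of all genes. Signals are compared here within a probe, since different probes respond differently to the same amount of transcript.

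**Figure D1:**
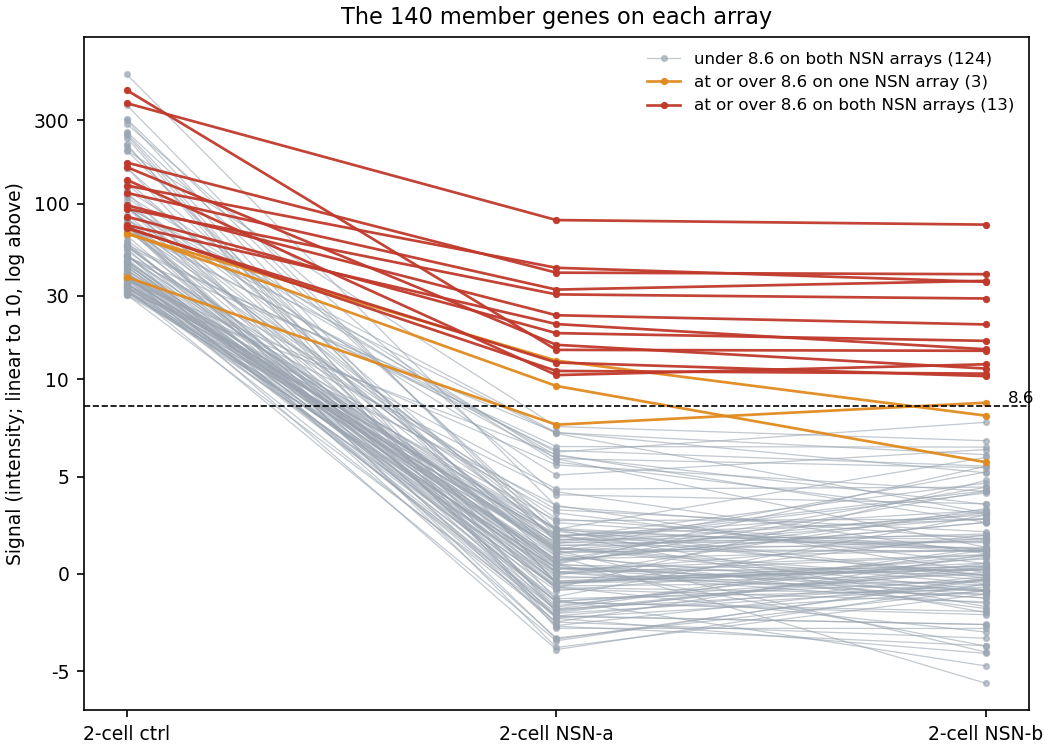
Signal of each of the 140 genes on the 2-cell ctrl array and both 2-cell NSN arrays (vertical axis, linear to 10 and logarithmic over it, 1 line per gene, dashed line at 8.6). The lines start at 30.2 to 549 and end in a dense band under 8.6 for 124 genes, with 13 genes (red) over it on both NSN arrays; 6 of these 13 were higher than the control after quantile normalization.

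The folds hold on the deposited scale, lower bounds included, and depend on how the arrays are scaled. Rescaling by the median ratio used 108 probes over 8.6 on all 3 arrays, with factors of 0.790 (a) and 0.773 (b). All 140 genes stayed at least 3-fold lower after it, with a median of -2.545. Under quantile normalization, which forces the 3 arrays to 1 distribution, the median of the 664 genes moved from -0.89 to -0.02. On that scale the median of the 140 genes was -1.39, 134 of them were lower in NSN embryos, 54 of them at least 3-fold, and Hmgcs1, Myh9, Oosp1, Rchy1, Ugcg and Uhrf1 were higher. With quantile normalization 47 genes met the whole rule, 37 of them under 8.6 on both NSN arrays where 124 were before, and 71.4% of bright genes passed the fold. The control array had 187 genes at or over 30 and the NSN arrays 42 and 35, and the part of this difference between arrays in the values was not tested. Cumulus cell markers (15 genes on the array), sperm markers (15), trophectoderm markers (12) and blood markers (10) were all under 8.6 on all 3 arrays. Of 14 oocyte and early-embryo markers 7 reached 8.6 in the control. The summed signal of all 14 was 515 there and 105 and 99.9 on the NSN arrays. Tcl1 (228), Bmp15 (102) and Oosp1 (94.0) made up most of the control sum, so it does not describe the markers in general.

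Prr13, known in human cells as a repressor of thrombospondin 1, had the largest fall among the genes with a signal over 8.6 on all 3 arrays. Its signal was 446 in the control and 14.7 and 14.5 on arrays a and b, 30.5-fold lower, a log2 difference of -4.93 that was -2.70 after quantile normalization. The NSN values were close to each other, and their distance from the control is part of how the gene was chosen. D030056L22Rik, which the annotation gives no role, read 162, 15.7 and 11.5 (12.1-fold lower), and Bri3, a small membrane protein of the endolysosomal system, read 137, 10.6 and 12.2 (12.1-fold lower). The array order differed between these genes, a over b for the first and b over a for the other, and after quantile normalization their log2 differences were -1.39 and -1.49, short of 3-fold. Serf2 had signals of 57.0, 6.54 and 6.51, at least 6.63-fold lower (-1.27 on the log2 scale after quantile normalization), and is the single gene of these 4 whose NSN signals were both under 8.6. Primers of the study's PCR for Serf2 mark the amplified transcript and are given to identify it, and PCR values were not analysed here.
Serf2 forward primer: agatgatgggctttctgctg
Serf2 reverse primer: acaaggctacttgggttcctc

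The other genes with a signal over 8.6 on every array include several known oocyte genes. Ctcfl, the germ-cell paralog of the insulator protein CTCF, read 376 in the control and 80.9 and 76.2 on the NSN arrays (4.79-fold lower), but its log2 difference was -0.024 after quantile normalization. Uhrf1, which brings DNA methyltransferase to newly replicated DNA, read 116, 32.5 and 36.4 (3.36-fold lower), but was higher than the control by 0.43 on the log2 scale after quantile normalization. Oosp1, a secreted oocyte protein, read 94.0, 30.5 and 28.9 (3.17-fold lower), and was likewise higher after quantile normalization, by 0.53. In each of these genes, on the deposited scale, arrays a and b were closer to each other than to the control. The rule that chose the genes largely builds this in. Rchy1, a RING ubiquitin ligase that targets p53, read 172, 40.5 and 39.7 (4.29-fold lower; 0.19 higher after quantile normalization), and Myh9, the heavy chain of non-muscle myosin IIA, read 127, 43.2 and 36.0 (3.23-fold lower; 0.55 higher after it).

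Among the enzymes, Hmgcs1, which makes HMG-CoA for sterol synthesis, read 98.3, 23.2 and 20.5 (4.51-fold lower; 0.025 higher on the log2 scale after quantile normalization). Ugcg, the glucosylceramide synthase, read 75.8, 20.6 and 14.8 (4.34-fold lower; 0.14 higher after it). These 2 genes kept about the same share of the control signal, and the other measured sterol and sphingolipid genes with a control signal over 8.6, Insig1 and Degs1, were under 8.6 on both NSN arrays. Dbi, the acyl-CoA binding protein, read 84.8, 18.3 and 16.5 (4.87-fold lower). Nfyc, a subunit of the CCAAT-binding factor NF-Y, read 73.5, 11.1 and 10.8 (6.71-fold lower), and Slc9a3r1, a PDZ scaffold under the plasma membrane, read 72.7, 12.4 and 10.4 (6.39-fold lower). After quantile normalization the log2 differences of Dbi, Nfyc and Slc9a3r1 were -0.092, -0.65 and -0.57, all short of 3-fold. Over the 13 genes the fold ran from 3.17 to 30.5 with a median of 4.79, their lowest control signal was 72.7, and 11 of 13 were higher on array a than on b, by a median log2 of 0.09 where the 136 genes over 8.6 on both NSN arrays had 0.06.

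A further 3 genes passed 8.6 on a single NSN array. Atg5, which conjugates the autophagy protein LC3 to membranes, read 68.4, 9.65 and 5.73 (at least 7.51-fold lower). Nlrp14, an oocyte member of the NLR family, read 67.6, 12.8 and 8.13 (at least 6.45-fold lower), and Fth1, the ferritin heavy chain, read 38.2, 7.66 and 8.79 (at least 4.40-fold lower). In these genes the arrays fell on either side of 8.6. After quantile normalization the log2 differences of Atg5 and Nlrp14 were -1.30 and -0.67, short of 3-fold.

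Of the 15 genes with the highest control signals, from 201 to 549, 13 were under 8.6 on both NSN arrays, the exceptions being Prr13 and Ctcfl. Midn, which carries nuclear proteins to the proteasome, read 549, 3.46 and 1.80 (at least 63.8-fold lower). Igsf3, an immunoglobulin superfamily membrane protein, read 366, 1.61 and 1.60 (at least 42.6-fold lower), and Mt1, a metal-binding metallothionein, read 306, 1.99 and 1.77 (at least 35.6-fold lower). These NSN signals lay inside the background of each array, whose limit, mirrored from the negative signals at the 99th percentile, was 4.08 on a and 3.96 on b. Fam3c, a secreted cytokine-like protein, read 301, -0.478 and -0.055, and Hspa2, the HSP70 protein of male germ cells, read 286, 4.07 and 3.60. Ss18l2, a small relative of the chromatin protein SS18, read 258, 2.29 and 5.98, the last of which was over the limit of its array. Over the whole set 99 genes were under that limit on both NSN arrays and 26 were at or over it on both.

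Wsb1, a substrate receptor of a ubiquitin ligase, had signals of 253, -0.447 and 0.427. The membrane skeleton protein Epb41l3 read 247, -1.99 and 0.540, and the actin-bundling protein Triobp 239, -2.65 and -0.283. All NSN signals of these 3 genes were under the arrays' limits. Cep120, needed to build centrioles, read 220, -2.79 and -2.80, Prr15 read 215, -1.33 and -4.73, and Pdpn, the membrane glycoprotein podoplanin, read 201, 0.491 and -3.71. Arglu1, a splicing regulator, was the exception among them, at 202, 7.57 and 6.84, with both NSN values over the arrays' limits and under 8.6.

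**Figure D2:**
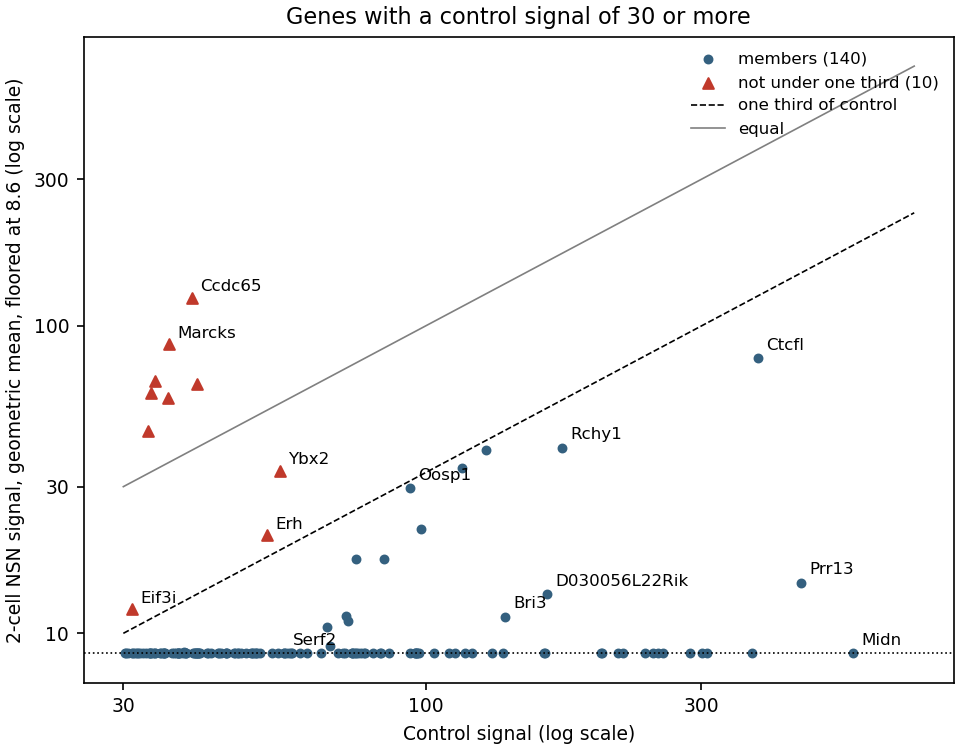
Control signal (horizontal) against the geometric mean of both 2-cell NSN signals, each set to 8.6 where lower (vertical), both on log scales. Circles are the 140 genes, and triangles the 10 bright genes that did not pass the fold, among them Eif3i, a translation factor left out by name. The 37 bright genes that passed the fold but were left out by name are not drawn. The dashed line is the 3-fold limit. The circles lie mostly on the floor of 8.6, and Prr13, Bri3 and D030056L22Rik stand between it and the limit; Oosp1 and Rchy1 were higher than the control after quantile normalization.

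Of the bright genes outside the left-out names, 9 did not pass the fold. Ybx2, an RNA-binding protein of germ cells, read 55.9, 32.6 and 35.1 (1.65-fold lower), and Erh read 53.1, 25.8 and 16.9 (2.54-fold lower), but both were higher than the control after quantile normalization, by 1.46 and 0.80 on the log2 scale. The other 7 were higher in NSN embryos, with Ccdc65, a ciliary protein, at 39.4, 120 and 127 (3.14-fold higher) and Marcks, a substrate of protein kinase C, at 35.9, 94.6 and 80.2 (2.42-fold higher), then Klf16, Mrgpra2b, Ifna6, Mmp1a and Rnf135. The arrays thus held probes that were bright in both kinds of embryo. Just inside the fold limit were Oosp1 (3.17), Myh9 (3.23), Uhrf1 (3.36), Ganc (at least 3.52) and Hsd3b7 (at least 3.52), and just outside it Erh and Ybx2, after which came Rnf135, Klf16 and Mrgpra2b, which were higher. Just inside the control limit were Ganc (30.2), Hsd3b7 (30.3), E2f5 (30.6), AA792892 (31.0) and Dedd (31.2), and just outside it Srpk1 (29.99), Atp1b1 (29.6), Phf5a (29.6), Siah1a (29.5) and Slc25a28 (29.3), among 29 genes that passed the fold with a control signal under 30.

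The remaining description follows the known roles of the genes, in 11 groups made after the set was known. The oocyte and early-embryo group held 10 genes, with control signals from 31.0 to 376. Omt2b, an oocyte maturation gene, read 93.9, 5.07 and 6.39 (at least 10.9-fold lower), and Gm428, listed with genes of 2-cell genome activation, read 58.6, 6.34 and 5.54 (at least 6.82-fold lower). Both kept NSN signals over the arrays' limits. E330034G19Rik read 46.8, 1.96 and 2.80 (at least 5.44-fold lower), Tfap2c, the transcription factor AP-2 gamma, 33.2, -3.44 and -0.211, Pramel25, of the Prame family, 34.9, 2.32 and -0.0914, and AA792892 31.0, 6.13 and 2.65. Together with Ctcfl, Oosp1, Uhrf1 and Nlrp14, the group had 3 genes over 8.6 on both NSN arrays and 1 on a single array. Probes of Omt2b and of Pramel25 may also bind transcripts of near-identical relatives, so their identity is uncertain.

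Of 39 genes on the array from a list of oocyte and maternal-effect genes, 15 reached 8.6 in the control and 8 reached 30. All 8 passed the fold, of which 7 are in the set (Nlrp14, Oosp1, Omt2b, Ctcfl, Uhrf1, E330034G19Rik and Gm428) and Bmp15, a growth factor of the oocyte, was left out by name. Smaller lists gave few genes over 8.6 in the control: 1 of 30 for autophagy (Atg5), 2 of 17 for 2-cell genome activation, 4 of 35 for sterol and sphingolipid synthesis, and 3 of 19 for WAVE and Arp2/3 actin nucleation. In each of the 9 lists, all genes with a control signal of at least 30 passed the fold, as did 94.7% of bright genes overall.

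The centromere and cell division group held 10 genes, all under 8.6 on both NSN arrays. Cenpa read 96.5, 6.07 and 3.57 (at least 11.2-fold lower), Mis18a 78.1, -1.63 and 0.845 (at least 9.09-fold lower) and Hjurp, the chaperone that loads Cenpa, 32.1, -0.622 and -0.402 (at least 3.73-fold lower). These 3 genes act in 1 pathway, the deposition of the centromeric histone, and all its members with a control signal over 8.6 on the array were in the set. Of its other genes measured here, Npm1 read 8.11, -1.86 and -0.840, and Rbbp7 read 2.81, 5.79 and 6.004. Haus6, a subunit of the augmin complex that branches spindle microtubules, read 117, -2.26 and -0.895 (at least 13.6-fold lower), while the other 6 augmin probes were at most 1.97 in the control. Chfr, a mitotic checkpoint ligase, Ankle2, which acts in nuclear envelope reassembly, Mapre1, a microtubule plus-end protein, Cdca3, Dctn4, a dynactin subunit, and Cep120 complete the group.

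The transcription and chromatin group was the largest by count, with 23 genes, of which only Nfyc was over 8.6 on both NSN arrays. The probes of Nfya and Nfyb, the other NF-Y subunits, read 0.635 and 0.831 in the control. Smarca2, an ATPase of the BAF remodelling complex, read 160, 1.70 and 4.27 (at least 18.7-fold lower), and Smarcd2, another subunit, 31.7, 1.93 and -0.0538 (at least 3.69-fold lower). The other 8 BAF probes were at most 2.54 in the control. Morf4l2, of the MRG family of chromatin proteins, read 136, 1.06 and 3.19 (at least 15.8-fold lower), and Meis2, a homeobox factor, 110, 2.18 and -0.209 (at least 12.8-fold lower). Sap30 and Sap30l, subunits of the SIN3 histone deacetylase complex, read 39.9 and 38.4 in the control and at most 3.14 on the NSN arrays. Sin3a of that complex read 17.4, 1.21 and 2.28, and the other probes of the complex were at most 3.45 in the control. The E2F partner Tfdp1 read 51.7, -3.29 and -0.844, and E2f5 30.6, 1.95 and 3.26. Suz12, a subunit of the Polycomb complex PRC2, read 37.6, 0.896 and -0.919, whereas the probes of Ezh1, Ezh2, Eed and Jarid2 were at most 0.886 in the control. The others, from 35.3 to 258 in the control, were Ss18l2, Prdm4, Kansl2, Tsc22d3, Gpbp1, Foxa3, Znrd1, Csrnp2, Hdgf, Nfe2l1, Phf13, Smad1 and Psip1.

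RNA processing and decay was represented by 13 genes, none over 8.6 on a NSN array. Zcchc8, part of a nuclear complex that targets RNA to the exosome, read 161, -1.81 and -0.563 (at least 18.7-fold lower). The splicing factor Srsf1 read 76.4, -2.17 and -0.144, and Rtraf, a factor linked to tRNA ligation, 75.6, 5.92 and 5.46. Rtraf and Arglu1 were the members of this group with NSN signals over the limit on both arrays. Celf1, which binds GU-rich elements, Upf1, the helicase of nonsense-mediated decay, Mphosph6, G3bp1, a stress granule protein, Rbm47, Ptbp1, Paip2b, Nsun4 and Lsm14a had control signals from 33.7 to 71.9.

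Ubiquitin and SUMO pathway genes numbered 11. Senp2, a SUMO protease, read 120, 5.92 and 1.36 (at least 13.98-fold lower), Mkrn2, a RING ligase, 104, 1.32 and -0.808, and Klhdc2, a substrate receptor of a cullin ligase, 81.2, 7.21 and 3.13. Array a was over b in all 3, and the gap to the control is part of how these genes were chosen. Midn, Wsb1 and Rchy1 are described with their values, and Trim8, Dtx2, Asb8, Mindy1 and Ubb-ps had control signals from 36.6 to 83.6. The last is a pseudogene of ubiquitin B whose probe may also bind the parent transcript, so its identity is uncertain.

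The actin cytoskeleton group held 7 genes with control signals from 33.4 to 247, and Myh9 alone was over 8.6 on both NSN arrays. Wdr1, which promotes actin disassembly with cofilin, read 130, 1.78 and 1.95 (at least 15.1-fold lower). Wasf1 and Brk1, subunits of the WAVE complex that activates Arp2/3, read 112, 5.75 and 3.06 and 40.0, 1.21 and -4.02, while the other WAVE probes were at most 1.09 in the control. Fchsd2 read 33.4, 0.298 and -0.033. Apart from Myh9, which was higher than the control after quantile normalization, every gene of the group, Epb41l3 and Triobp included, was under 8.6 on both NSN arrays.

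Vesicle traffic and autophagy held 12 genes, and Atg5 alone passed 8.6 on a NSN array. Tpd52 read 96.0, 7.26 and 5.19 (at least 11.2-fold lower), Stt3b, a catalytic subunit of the oligosaccharyltransferase, 95.7, -1.92 and 0.255, and the small GTPase Rab2a 50.2, 4.35 and 4.46 (at least 5.84-fold lower). Rab7, which directs late endosomes to lysosomes, read 34.0, 2.74 and 2.81 (at least 3.96-fold lower). With the mean of all probes the log2 difference of Rab7 was -0.32, its further probes reading 0.040 and -1.92 in the control, and after quantile normalization it was -0.99. The Rab2a signals were over both arrays' limits and the Rab7 signals were not. Denn2b, Mospd1, Snx18, Plekhf2, Arf6, Rabgef1 and Tprgl had control signals from 35.2 to 96.6. Of 57 listed secretory pathway genes on the array 6 reached 8.6 in the control.

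**Figure D3:**
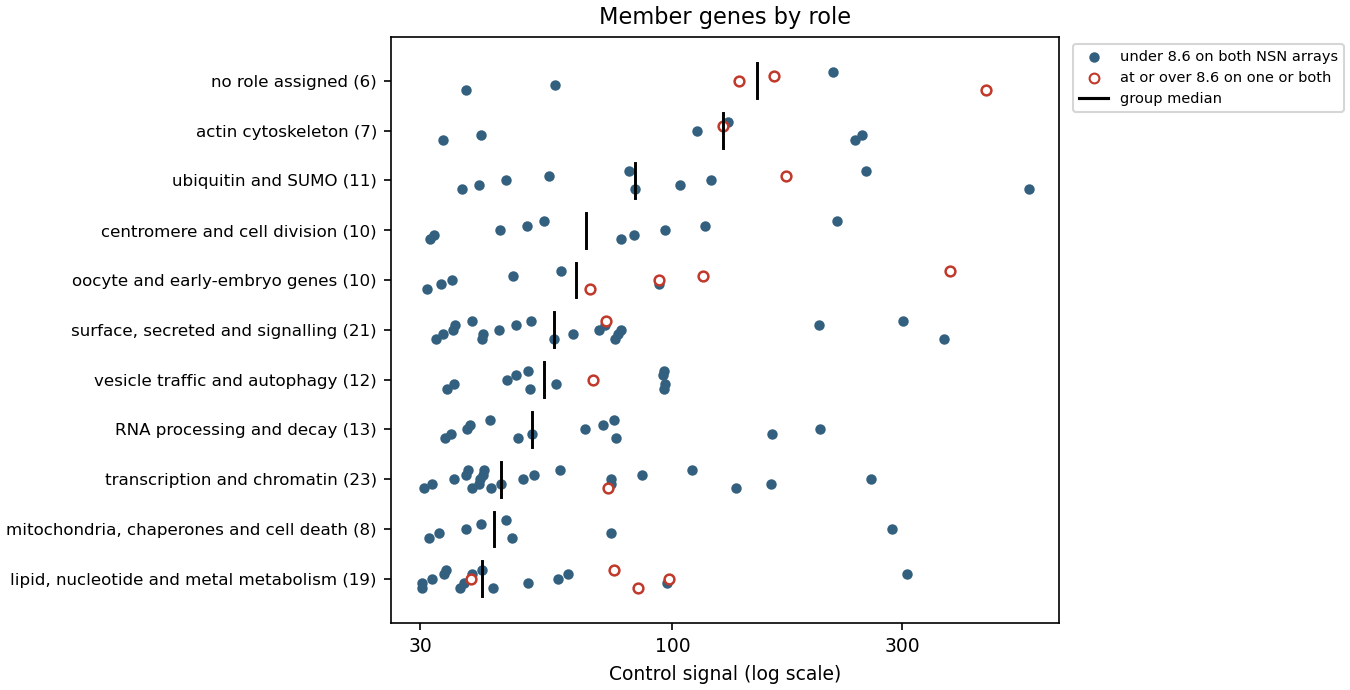
Control signal of the 140 genes (horizontal, log scale) by role group (vertical), 1 point per gene and a bar at each group's median; open circles were at or over 8.6 on 1 or both 2-cell NSN arrays. Open circles occur in 8 of the 11 groups, and groups cannot be ranked by signal because probes differ in their response; Hmgcs1, Myh9, Oosp1, Rchy1, Ugcg and Uhrf1, all open circles, were higher than the control after quantile normalization.

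Metabolism, mainly of lipids, nucleotides and metals but with other enzymes such as Cdo1 and Odc1, was represented by 19 genes. Their control signals ran from 30.2 to 306. Cdo1, which oxidises cysteine, read 97.5, -0.382 and 0.232 (at least 11.3-fold lower), Rrm2, the small subunit of ribonucleotide reductase, 60.7, -2.28 and -4.08 (at least 7.06-fold lower), and Acly, which makes cytosolic acetyl-CoA, 58.0, -0.441 and 0.397 (at least 6.74-fold lower). All 3 were at background on both NSN arrays. Odc1, the first enzyme of polyamine synthesis, read 34.0, -0.215 and 0.229, and Ctps, which makes CTP, 36.3, 0.452 and 0.173. Ippk, Gm2a, Stard5, Ebpl, Nudt5, Xpnpep1, Pgp, Hsd3b7 and Ganc had control signals from 30.2 to 50.2. With Mt1, Fth1, Hmgcs1, Dbi and Ugcg, the group included 3 genes over 8.6 on both NSN arrays.

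Genes of mitochondria, chaperones and cell death numbered 8, all under 8.6 on both NSN arrays. Dnaja3, a mitochondrial cochaperone, read 74.8, -1.44 and -2.10 (at least 8.69-fold lower). Parl, a protease of the inner mitochondrial membrane, read 37.3, 4.22 and 1.03, and Tmbim6, an inhibitor of cell death in the endoplasmic reticulum, 32.8, 3.52 and 0.060. Tomm34, Tmem65, Siva1 and Dedd had control signals from 31.2 to 46.6. Hspa2 was the only one of 37 listed chaperone genes on the array with a control signal of at least 30, and Hsph1 and Dnajb1 were the others over 8.6.

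Surface, secreted and signalling genes were 21, with Slc9a3r1 the only one over 8.6 on both NSN arrays. Ptp4a2, a membrane phosphatase, read 78.4, -0.497 and 0.768 (at least 9.12-fold lower), Dusp6, which inactivates ERK, 77.2, 2.83 and 1.24, and Shc1, an adaptor of receptor tyrosine kinases, 72.6, 6.26 and 7.78 (at least 8.45-fold lower). All 3 were under 8.6 on both NSN arrays. Rictor, a subunit of mTOR complex 2, read 62.2, 1.06 and 1.71, and Gja1, the gap junction protein connexin 43, 35.1, 1.38 and -0.315. Mark2, Fbln1, Jakmip1, Slc12a2, Flcn, Gpc1, Wwc2, Lrrc8d, Aggf1, Pdgfa, Ceacam20 and Sema4b had control signals from 32.4 to 75.9. The group also holds Igsf3, Fam3c and Pdpn. No role was assigned to Prr13, Prr15, D030056L22Rik, Bri3, Serf2 and Smim14, of which Smim14 read 37.3, 1.85 and 4.67.

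Other probes of the same genes gave a second reading on the same arrays. More than 1 probe was present for 67 of the 140 genes, with 110 further probes in all, of which 17, each of a different gene, reached 8.6 in the control. None of the 110 reached 8.6 on a NSN array, so all 17 necessarily read lower there. Their folds are lower bounds, and 9 of the 17 were at least 3-fold lower. Of 92 bright genes with several probes, most of them in the set, 23 had a further probe at or over 8.6 in the control. The further probe of Midn read 358, -0.825 and -0.164, that of Fam3c 235, -1.41 and -0.343, and that of Triobp 132, -0.037 and 2.40. For these 3 genes 2 probes were bright in the control and at background in NSN embryos, and the remaining probe of each was under 8.6 on all 3 arrays. Further probes of Celf1 (64.7), Denn2b (49.97), Ankle2 (43.8), Atg5 (41.0) and Rrm2 (35.4) had control signals over 30 as well. In the other 50 genes with several probes no further probe reached 8.6 in the control, so these genes rest on 1 probe, as do the 73 with a single probe. Among the 50 were Hspa2, Epb41l3, Smarca2, Zcchc8, Rchy1, Uhrf1 and Dbi, whose further probes read at most 1.59 in the control. With the mean over all probes of a gene, 96 genes met the rule.

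**Figure D4:**
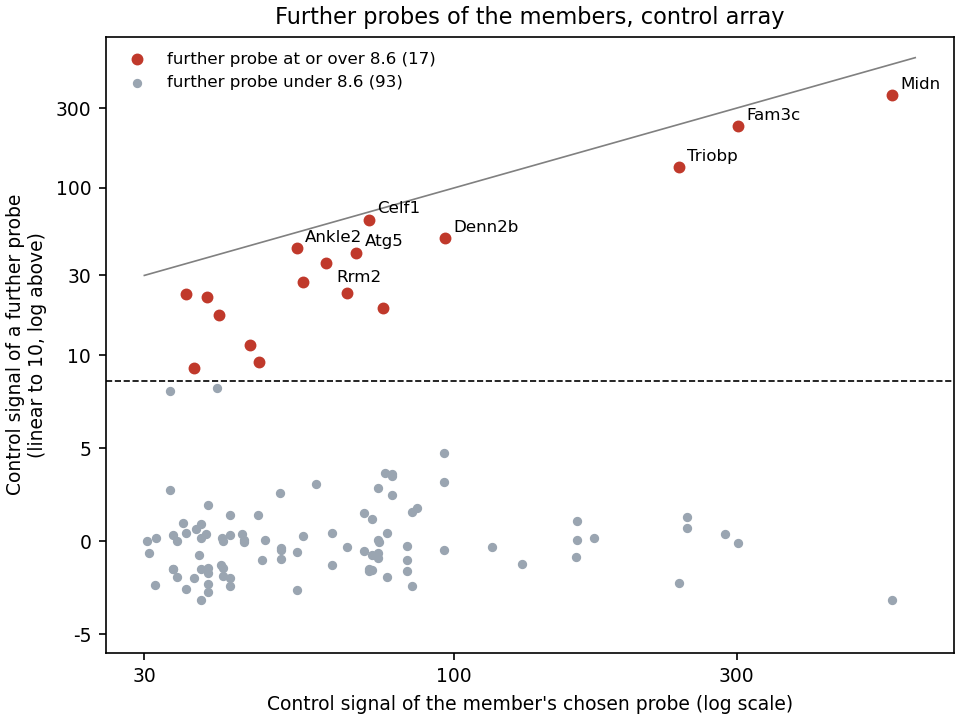
Control signal of each of 110 further probes (vertical, linear to 10 and logarithmic over it) against that of the chosen probe of the same gene (horizontal, log scale), for the 67 genes with several probes; the solid line marks equal signals and the dashed line 8.6. The 17 probes over the dashed line lie near or under the solid line, with Midn, Fam3c and Triobp at the upper right, and the other 93 lie under the dashed line.

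The 140 genes lay on most chromosomes, with 15 on chromosome 5 (10.7%), 14 on chromosome 4 (10%), 11 on chromosome 11 (7.86%) and 10 on chromosome 15 (7.14%). Bright genes as a whole had 9.63% on chromosome 5, 9.63% on chromosome 4, 11.2% on chromosome 11 and 6.95% on chromosome 15. All genes on the array had 5.74%, 5.84%, 8.07% and 3.78%. The set makes up 140 of the 187 bright genes, so nearness of its shares to theirs is largely built in.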

How the data were processed

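Polyadenylated RNA of 2-cell embryos was amplified and hybridised to 1 control and 2 NSN arrays. The methods state a second round of amplification, the labels a single in vitro transcription. The deposited values are intensities on a linear scale, which the authors made, per their methods, by background subtraction and rank-invariant normalization (BeadStudio 3 in the submitters' processing notes). Column medians were 0.0916, 0.0443 and 0.0195, and the exact normalization between arrays is unknown. Another deposited table has 3 value columns that match no sample and were not used.

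Of 25697 probes, 23978 have 1 symbol in the platform annotation, 0 several and 1719 none, for 16593 genes, each taken at the probe of highest mean signal. Signals under 8.6 were set to 8.6 before log2. The members and lists were chosen with earlier results of these data known, and role groups and complexes after the members were known. The genes named are the 4 given markers, members over 8.6 on both NSN arrays, the 15 with the highest control signal, list members and those nearest each threshold, with the rest grouped by role, where the examples with values were chosen after their values were seen. The contrast chose the members, so no test was run, and the number of arrays limits the precision. Alternatives were other floors, log2(signal + 16), quantile normalization with and without normexp, rescaling, other probe choices and thresholds, and leaving out each NSN array. The rule was tested on simulated data. Promoters and chromosomes are from RefSeq (GRCm38.p6). Python 3.11.15, pandas 2.3.3, numpy 2.4.6, matplotlib 3.10.9, R 4.3.3 and limma 3.58.1 were used.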

Additional observations from a re-analysis of the deposited data

How the results depend on the processing

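Number of genes meeting the rule: it was 140, 47 with quantile normalization and 48 with normexp and quantile normalization. It was 63 with a control minimum of 60, 141 with rescaling by the median ratio, and between 139 and 141 when either NSN array was left out. Genes under 8.6 on both NSN arrays numbered 124, 37 with quantile normalization and 38 with normexp and quantile normalization. The median log2 difference of the genes meeting the rule under each setting (-2.52) was -3.48 with floors at the mirrored limits, -3.39 with a floor of 4.3, -1.997 with log2(signal + 16), -2.44 with quantile and -2.45 with normexp and quantile normalization, -2.28 and -3.45 with control minima of 20 and 60, -2.69 at a fold of at least 4, and -2.59 with no names left out. For the original 140 genes it was -1.39 with quantile, -1.43 with normexp and quantile normalization and -1.87 with log2(signal + 16). Under quantile normalization, and under normexp with quantile normalization, the log2 differences became positive for Hmgcs1 (0.0251 and 0.0247), Myh9 (0.55 and 0.54), Oosp1 (0.53 and 0.53), Rchy1 (0.19 and 0.19), Ugcg (0.14 and 0.14) and Uhrf1 (0.43 and 0.42), and the cause was not tested. Of the 44 genes named by the rule, 17 were at least 3-fold lower under either normalization, and Ctcfl (-0.024) and Dbi (-0.09) were near 0. Of all 140, 54 and 55 were at least 3-fold lower. No paired analysis was possible because the groups share no replicate numbers and the control is 1 array. Signals near background have no order, and most NSN signals lay there.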
